A study of Mus musculus with 18 samples.

Results

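Expression of 9 genes that bring ubiquitinated proteins to the proteasome was followed through proteasome inhibition in fibroblasts with and without the transcription factor Nrf1. The genes were taken by symbol. They were the base scaffolds Psmd1 and Psmd2, the receptors Psmd4 and Adrm1, the deubiquitinase Uchl5 and the shuttle factors Rad23b, Ubqln1, Ubqln2 and Ubqln4. All 9 had a row among the 23420 gene symbols of the count table, and all 9 were among the 11762 genes with enough reads to be tested. NIH-3T3 cells, an established line of mouse embryonic fibroblasts, were either WT or Nrf1-KO, the latter made with CRISPR/Cas9 against the gene encoding Nrf1 (Nfe2l1). Each line received the vehicle DMSO, carfilzomib (CFZ) at 200 nM for 6 h, or CFZ at 200 nM for 24 h, with 3 biological replicates in each of the 6 groups and 18 libraries in all. How long the vehicle was applied, and whether the Nrf1-KO line came from 1 clone, are not given in the sources used here, so differences between the lines other than the loss of Nrf1 cannot be told apart from it. CFZ at 6 h and at 24 h was compared with the same DMSO libraries of each line, so the comparisons at both times share their controls.

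The proteasome degrades proteins that carry chains of ubiquitin. Its 19S regulatory particle has a base, in which the scaffold subunits Rpn1 (Psmd2) and Rpn2 (Psmd1) sit beside a ring of ATPases, and a lid with a deubiquitinase. Ubiquitin chains are bound by receptors built into the particle, Rpn10 (Psmd4) and Rpn13 (Adrm1), and Rpn13 in turn holds the deubiquitinase Uch37 (Uchl5). Other substrates arrive on shuttle factors, such as Rad23b and the ubiquilins, which bind the proteasome with a ubiquitin-like domain and ubiquitin with a ubiquitin-associated domain. CFZ blocks the proteasome's chymotrypsin-like site irreversibly, and cells answer the loss of activity by making more proteasome subunits. Nrf1 is known to drive that answer.

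The libraries held between 8333148 and 23917081 counted reads (median 14419832), and a gene of the 9 had between 397 (Uchl5) and 19378 (Psmd1) reads in a library. A level is given as CPM, the read count scaled to library depth with edgeR's TMM factors, and is relative to the rest of the library. In RNA from whole cultures, fewer cells expressing a gene and less of its RNA per cell cannot be told apart. Nfe2l1 itself, the targeted gene, was at 457, 437 and 449 CPM in the WT libraries and 174, 185 and 181 CPM in the Nrf1-KO libraries in DMSO, and each Nrf1-KO library had less of it than any WT library given the same agent for the same time. At 6 h of CFZ it was at 650.4, 648 and 628 CPM in WT and 413, 416 and 427 CPM in Nrf1-KO libraries, and at 24 h at 559, 555 and 580.0 CPM and 209.5, 202 and 201 CPM. In Nrf1-KO cells the remaining reads rose 2.32-fold by 6 h (edgeR adjusted p = 3.5e-24), to just below the untreated WT libraries, and the log2 difference between the lines went from -1.31 in DMSO to -0.62 at 6 h and -1.47 at 24 h. The interaction of genotype and CFZ, the log2 response of Nrf1-KO minus that of WT cells in the edgeR model, was 0.70 at 6 h (edgeR adjusted p = 1.6e-13) and -0.15 at 24 h (adjusted p = 0.0062). The deleted part of the gene is not given, so the reads that remained check the level only. All 8 fibroblast markers were detected in every library. Their summed level was 32821 to 35671 CPM in WT and 27356 to 33634 CPM in Nrf1-KO cells in DMSO, 28167 to 30597 CPM and 28578 to 32285 CPM at 6 h of CFZ, and 8090.1 to 8384 CPM and 10816 to 12846 CPM at 24 h. Their part in the differences at 24 h was not tested. The 9 markers of leukocytes, epithelium and endothelium summed to 2.11 to 8.02 CPM in WT and 5.16 to 15.4 CPM in Nrf1-KO libraries, with Cd3e and Epcam at 0 in all 18. The leukocyte marker Ptprc was at 0 in every WT library and at 0.719 to 1.33 CPM in the Nrf1-KO libraries. The mean of Cd68, another leukocyte marker, was 0.698 CPM in WT and 0.776 CPM in Nrf1-KO cells in DMSO. It was 0.802 and 0.754 CPM at 6 h and 3.21 and 4.48 CPM at 24 h. Most of the sum in DMSO was Cdh1, at means of 6.12 and 11.6 CPM. Mean Cdh5 went from 0.226 CPM in DMSO to 2.95 CPM at 24 h in WT and from 0.181 to 3.402 CPM in Nrf1-KO cells. The part of these markers in the differences between the lines was not tested.

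The promoters of the genes were read to show what the members share in sequence. RefSeq windows on GRCm38.p6, from 250 bases before to 50 bases after the start, were found for 8 of the 9 genes, all but Ubqln2. The antioxidant response element (ARE), the site bound by Nrf1 with small Maf proteins, was searched by its core TGACNNNGC on both strands. It occurred in 2 of the 8 windows, those of Adrm1 and Uchl5, and in 12.4% of 32851 RefSeq windows. In Adrm1 the core began 162 bases before the start and in Uchl5 34 bases before it. Neither match held the letters TGACTCA of the AP-1 site, which can overlap an ARE. The heat shock element, searched as alternating GAA and TTC units with gaps between them, was in 0 of the 8 windows and in 0.603% of all windows. CCAAT was in 3 of the 8, those of Psmd4, Adrm1 and Rad23b, and in 37.4% of all windows. A match describes the letters of the window and is not evidence of binding. The windows of Adrm1 and Uchl5, which encode partner proteins and whose levels moved apart, and of Psmd1, which moved like Adrm1 in WT cells at 6 h and has no such core here, are shown with the ARE core in capitals and the CCAAT of Adrm1 left in lower case. They lie at chr2:180171338-180171637, plus strand, at chr1:143777028-143777327, plus strand, and at chr1:86064369-86064668, plus strand. The GENCODE start of Psmd1, at 86064387, lies near the upstream end of its window. Little sequence before that start was therefore searched for Psmd1.
Adrm1: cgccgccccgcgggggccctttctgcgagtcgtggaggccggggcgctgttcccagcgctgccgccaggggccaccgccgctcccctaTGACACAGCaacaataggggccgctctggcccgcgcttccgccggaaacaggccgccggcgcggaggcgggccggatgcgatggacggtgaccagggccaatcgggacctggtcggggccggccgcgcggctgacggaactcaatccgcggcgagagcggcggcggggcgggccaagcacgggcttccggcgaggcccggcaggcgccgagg
Uchl5: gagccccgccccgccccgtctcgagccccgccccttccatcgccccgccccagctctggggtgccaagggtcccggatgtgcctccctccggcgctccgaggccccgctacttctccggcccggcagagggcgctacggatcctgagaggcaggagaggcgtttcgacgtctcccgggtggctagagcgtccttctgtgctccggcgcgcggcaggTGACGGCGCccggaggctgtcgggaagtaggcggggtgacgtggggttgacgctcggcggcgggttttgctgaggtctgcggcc
Psmd1: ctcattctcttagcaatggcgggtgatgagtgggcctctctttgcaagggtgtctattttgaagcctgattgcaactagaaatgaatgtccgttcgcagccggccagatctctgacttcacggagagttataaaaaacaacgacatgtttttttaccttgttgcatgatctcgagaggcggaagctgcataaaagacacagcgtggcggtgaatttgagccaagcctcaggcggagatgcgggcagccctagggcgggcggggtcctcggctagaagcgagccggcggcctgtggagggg

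Per kilobase of annotated exon, Rad23b was the most abundant of the 9 in untreated WT cells at 120.4 ± 3.28 CPM per kb (SD, n = 3), followed by Psmd2 at 90.0 ± 0.373 and Psmd1 at 47.8 ± 0.958 CPM per kb. Psmd4 (41.9 ± 1.21) and Ubqln2 (41.4 ± 0.782) came next and overlapped. Ubqln1 stood at 33.3 ± 0.660 CPM per kb. Adrm1 (17.9 ± 1.14) and Ubqln4 (16.9 ± 0.810) overlapped, and Uchl5 was lowest at 14.8 ± 0.789 CPM per kb. In WT cells at 24 h of CFZ the order had become Psmd2 (257 ± 1.98), Rad23b (198 ± 3.90), then Psmd4 (161 ± 6.32) and Psmd1 (156 ± 3.76), which overlapped, then Ubqln1, Adrm1, Ubqln2, Ubqln4 and Uchl5. In untreated Nrf1-KO cells Psmd2 (99.7 ± 1.44) and Rad23b (99.4 ± 2.58) overlapped at the top and Uchl5 (14.2 ± 0.339) and Adrm1 (13.7 ± 0.358) at the bottom. These levels rest on the exon lengths of GENCODE M21 and not on the authors' annotation.

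**Figure D1:**
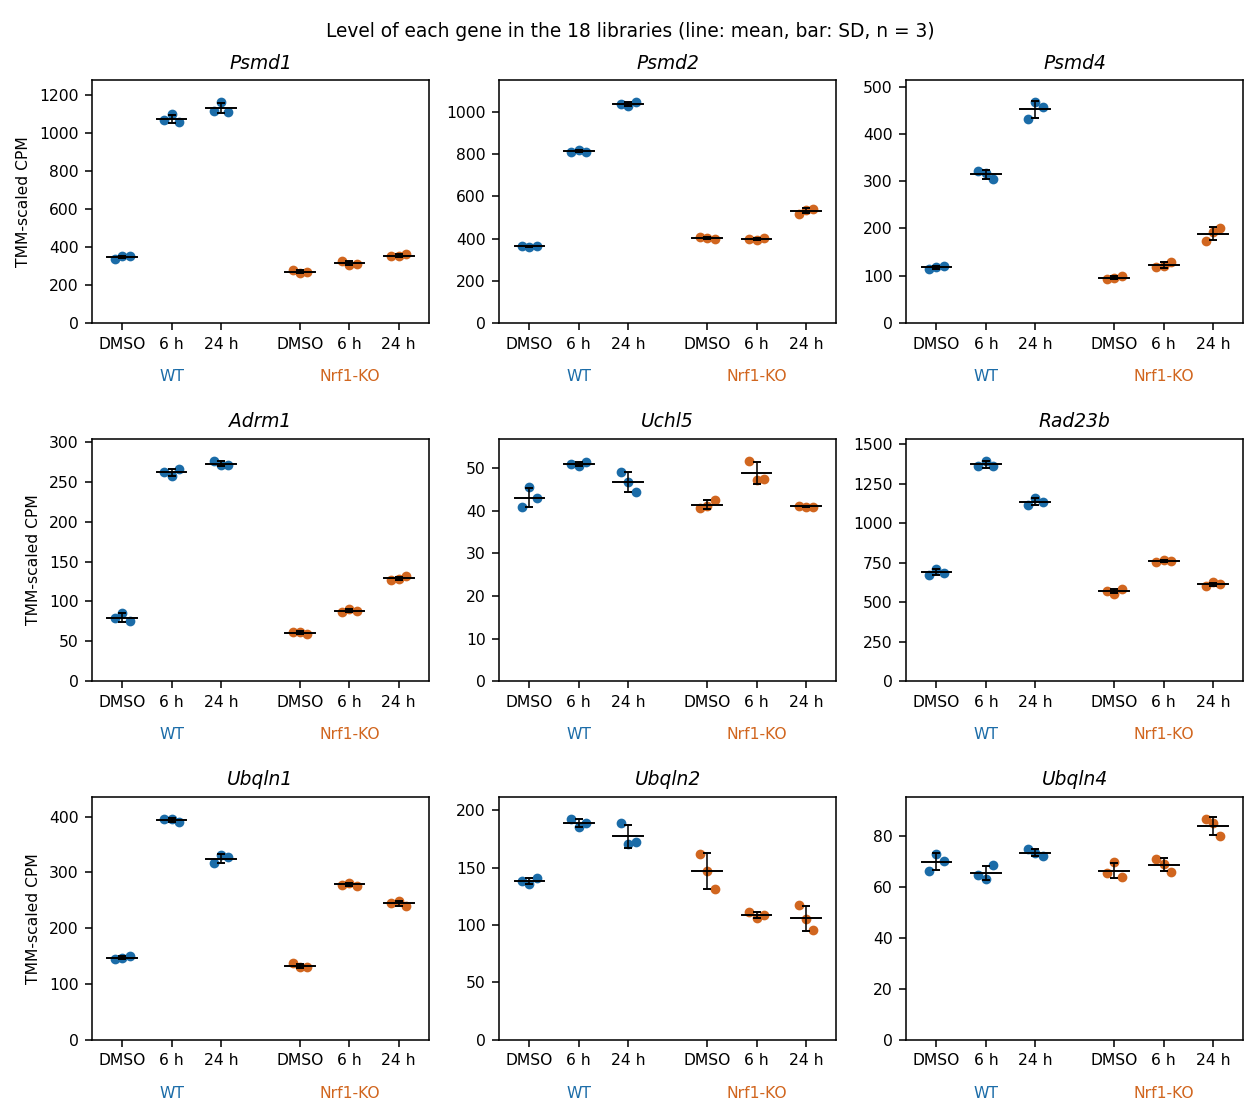
Level of each of the 9 genes (CPM, TMM-scaled, linear axis from 0) in the 18 libraries, WT in blue and Nrf1-KO in orange. Points are libraries, lines means and bars SD (n = 3). Psmd1, Psmd2, Psmd4 and Adrm1 rose steeply in WT and far less in Nrf1-KO cells, Ubqln1 rose in both, and Ubqln2 moved in opposite directions in the lines.

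The question of the design was how these genes responded to CFZ and how much of the response was lost without Nrf1. Differences were tested with edgeR's quasi-likelihood test in 1 model of all 18 libraries, with Benjamini-Hochberg adjustment over the 11762 genes, and a gene is called changed at an adjusted p under 0.05. In WT cells 8 of the 9 rose at 6 h and 8 of the 9 rose at 24 h, and Ubqln4 was the gene not called at either time. Across all genes tested, 35.6% rose and 36.2% fell at 6 h, and 43.2% rose and 40.5% fell at 24 h, so most genes were called and the sizes are the more telling values. The median log2 fold change of the scaffolds, receptors and Uchl5 was 1.42 at 6 h and 1.70 at 24 h, that of the shuttle factors 0.72 and 0.54, and that of all genes -0.019 and 0.023.

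In Nrf1-KO cells 6 of the 9 rose, Ubqln2 fell, and Psmd2 and Ubqln4 were not called at 6 h, where 34.5% of all genes rose and 35% fell. At 24 h 7 rose, Ubqln2 fell and Uchl5 was not called, where 44.4% of all genes rose and 41.1% fell. The medians there were 0.24 and 0.40 for the scaffolds, receptors and Uchl5, and 0.24 and 0.23 for the shuttle factors, with -0.0082 and 0.030 for all genes. The interaction of genotype and CFZ, the log2 response of Nrf1-KO cells minus that of WT cells, was negative and called for 7 of the 9 at 6 h, against 18.4% of all genes called negative and 19.8% called positive. At 24 h it was negative and called for the same 7 genes, against 30% of all genes, and positive and called for Ubqln4, against 29.7% of all genes. The median interaction was -1.17 and -0.97 for the scaffolds, receptors and Uchl5, -0.46 and -0.44 for the shuttle factors, and 0.017 and 0.0049 for all genes.

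**Figure D2:**
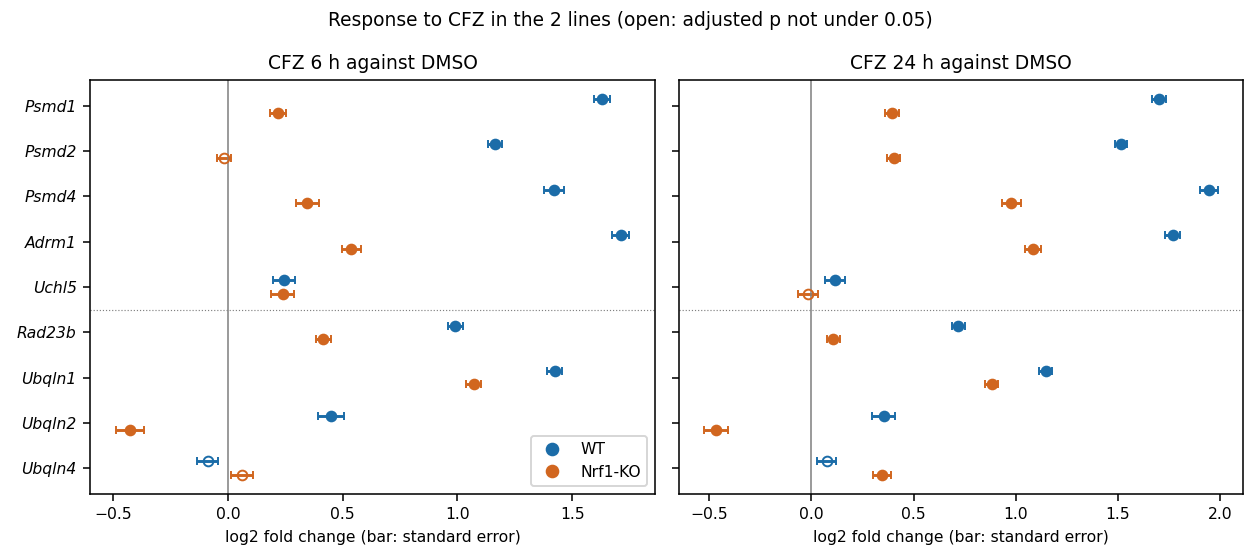
Log2 fold change of each of the 9 genes in CFZ against DMSO at 6 h and at 24 h, in WT (blue) and Nrf1-KO (orange) cells. Bars are standard errors from the edgeR model (3 libraries per group), and open points mark values not called. The distance between the colours is wide for Psmd1, Psmd2, Psmd4 and Adrm1, and also for Ubqln2, which moved in opposite directions in the lines. It is narrower for Ubqln1, and for Uchl5 the points nearly coincide at 6 h.

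Psmd1 (chr1:86064387-86139151, plus strand on GRCm38) encodes Rpn2, the base scaffold to which Adrm1 binds. In WT cells its level was 339, 352 and 351 CPM in the 3 DMSO libraries, 1068, 1099 and 1059 CPM at 6 h and 1117, 1162 and 1112 CPM at 24 h. The Nrf1-KO libraries held 281, 263 and 267 CPM in DMSO, 325, 307 and 310.2 CPM at 6 h and 351, 350.4 and 362 CPM at 24 h. Every treated library was above every DMSO library of its line, but the highest Nrf1-KO library stayed below the lowest treated WT library. In WT cells the level rose 3.10-fold by 6 h (log2 1.63, SE 0.034, edgeR adjusted p = 1e-27) and 3.26-fold by 24 h (adjusted p = 1e-28). In Nrf1-KO cells the rise was 1.16-fold (edgeR adjusted p = 2.3e-06) and 1.31-fold (adjusted p = 5.2e-12). The interaction was -1.41 at 6 h (95% interval -1.51 to -1.31) and -1.31 at 24 h (-1.41 to -1.21), the most negative of the 9 at both times. Psmd1 was also lower in Nrf1-KO cells without CFZ, by -0.36 on the log2 scale (SE 0.035, edgeR adjusted p = 2.1e-10). In the annotation 4.14% of its exon length overlaps Gm21972 on the same strand and 3.47% overlaps Htr2b on the other, so that share of reads is uncertain.

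Psmd2 (chr16:20651652-20663414, plus strand) encodes Rpn1, the scaffold that docks ubiquitin-like domains of shuttle factors. The WT libraries held 363, 362 and 365 CPM in DMSO, 812, 819 and 813 CPM at 6 h and 1038, 1030.2 and 1046 CPM at 24 h. In Nrf1-KO cells the values were 407, 405 and 396 CPM in DMSO, 397, 395 and 401 CPM at 6 h and 518, 535 and 541 CPM at 24 h. The 6 h and DMSO libraries of the Nrf1-KO line overlapped, while all others separated within a line. Psmd2 rose 2.24-fold by 6 h in WT cells (log2 1.16, SE 0.030, edgeR adjusted p = 2.2e-25) and 2.86-fold by 24 h (adjusted p = 7.2e-29). In Nrf1-KO cells the log2 difference at 6 h was -0.017 (95% interval -0.079 to 0.045, edgeR adjusted p = 0.64), and at 24 h the level had risen 1.32-fold (adjusted p = 7.7e-14). Under upper-quartile scaling or library size alone the 6 h difference passed the threshold as a fall. The interaction was -1.18 at 6 h (SE 0.043, edgeR adjusted p = 4.2e-20) and -1.11 at 24 h (adjusted p = 3.9e-20). Unlike the other scaffold, Psmd2 started higher in Nrf1-KO than in WT cells, by 0.15 (SE 0.030, edgeR adjusted p = 0.00012).

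The relation of the scaffolds to each other therefore differed between the lines. Per exon length the ratio of Psmd1 to Psmd2 was 0.531 ± 0.0104 in untreated WT cells (mean ± SD of 3 libraries), 0.734 ± 0.0110 at 6 h and 0.605 ± 0.0190 at 24 h. In Nrf1-KO cells it was 0.373 ± 0.0113, 0.439 ± 0.0143 and 0.371 ± 0.00637 in the same order. In both lines the 6 h libraries had the highest ratio and did not overlap the others of their line.

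Psmd4 (chr3:95032694-95042614, minus strand) encodes Rpn10, a receptor that binds ubiquitin chains through ubiquitin-interacting motifs. Its level in WT libraries was 114, 119 and 120.1 CPM in DMSO, 322, 318 and 304 CPM at 6 h and 432, 467 and 457 CPM at 24 h. In Nrf1-KO libraries it was 92.7, 95.9 and 98.5 CPM, 117, 120.5 and 129 CPM and 173, 193 and 200.2 CPM in the same order. No groups of a line overlapped, and the level climbed from DMSO to 6 h and from 6 h to 24 h in both lines. In WT cells it rose 2.67-fold by 6 h (log2 1.42, SE 0.044, edgeR adjusted p = 3.7e-23) and 3.85-fold by 24 h (adjusted p = 2e-27), the largest rise of the 9 at that time. In Nrf1-KO cells it rose 1.27-fold (edgeR adjusted p = 2.1e-07) and 1.97-fold (adjusted p = 3.8e-19). The interaction was -1.07 at 6 h (95% interval -1.21 to -0.94) and -0.97 at 24 h (-1.09 to -0.84). From 6 h to 24 h Psmd4 rose by 0.53 in WT (SE 0.041, edgeR adjusted p = 6.9e-13) and by 0.63 in Nrf1-KO cells (adjusted p = 1.1e-13), the largest late rise of the 9 in each line.

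Adrm1 (chr2:180171485-180176286, plus strand) encodes Rpn13, the receptor that binds Psmd1's product on one side and Uchl5's on the other. In WT cells it stood at 79.2, 85.2 and 75.1 CPM in DMSO, 263, 257 and 266 CPM at 6 h and 276, 270.4 and 271 CPM at 24 h. The Nrf1-KO values were 61.7, 61.9 and 59.1 CPM, 86.7, 90.0 and 87.9 CPM and 127, 128 and 131 CPM. In WT cells the 24 h libraries lay only just above those at 6 h, whereas in Nrf1-KO cells the groups were well apart. The rise in WT cells was 3.27-fold by 6 h (log2 1.71, SE 0.037, edgeR adjusted p = 2.6e-27), the largest of the 9 at that time, and 3.41-fold by 24 h (adjusted p = 3.1e-28). The difference between 24 h and 6 h was 0.058 in WT cells (95% interval -0.012 to 0.13, edgeR adjusted p = 0.13) and 0.55 in Nrf1-KO cells (SE 0.040, adjusted p = 1.1e-13). In Nrf1-KO cells Adrm1 rose 1.45-fold by 6 h (edgeR adjusted p = 1.5e-12) and 2.12-fold by 24 h (adjusted p = 6.7e-22), more than any other of the 9 at 24 h. The interaction was -1.17 at 6 h and -0.68 at 24 h (95% intervals -1.29 to -1.06 and -0.80 to -0.57), and these intervals did not overlap. Without CFZ, Adrm1 was lower in Nrf1-KO cells by -0.40 (SE 0.041, edgeR adjusted p = 1.4e-09). Of the read-length stretches of its transcripts, 20.1% also occur in the retrogene Gm9774, which has no row in the count table, so reads could have been lost or shared there.

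Uchl5 (chr1:143777272-143807466, plus strand), the deubiquitinase held by Adrm1's product, moved little. The WT libraries held 40.9, 45.5 and 43.0 CPM in DMSO, 51.0, 50.5 and 51.6 CPM at 6 h and 49.2, 46.8 and 44.5 CPM at 24 h. The Nrf1-KO libraries held 40.6, 41.2 and 42.5 CPM, 51.8, 47.3 and 47.6 CPM and 41.2, 41.0 and 40.9 CPM. The 6 h libraries were above the DMSO libraries in both lines, and the 24 h libraries overlapped the DMSO libraries in both. At 6 h the rise was 1.18-fold in WT (log2 0.24, SE 0.049, edgeR adjusted p = 4.9e-05) and 1.18-fold in Nrf1-KO cells (adjusted p = 1e-04). The interaction at 6 h was -0.0051 (95% interval -0.15 to 0.14, edgeR adjusted p = 0.97), an interval that leaves room for a difference of up to about that size in either direction. At 24 h the log2 difference from DMSO was 0.11 in WT cells (edgeR adjusted p = 0.034) and -0.019 in Nrf1-KO cells (adjusted p = 0.72), with an interaction of -0.13 (95% interval -0.27 to 0.0091). The WT call at 24 h was lost in 9 of the alternative analyses. Among them were DESeq2 (adjusted p = 0.17), upper-quartile scaling, which gave -0.024, and the models without WT DMSO replicate 1 (0.041) or 3 (0.11) or without WT 24 h replicate 1 (0.086) or 2 (0.11). The 24 h interaction passed the threshold without WT DMSO replicate 2 (-0.17, adjusted p = 0.036) or WT 24 h replicate 3 (-0.17, adjusted p = 0.049). Under library size alone it did so too (-0.21, edgeR adjusted p = 0.011). The Nrf1-KO difference at 24 h was called as a fall under upper-quartile scaling (-0.13, edgeR adjusted p = 0.017) and library size alone (-0.20, adjusted p = 0.00043).

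Because Adrm1 rose and Uchl5 hardly did, the ratio between these partner genes shifted. Per exon length the ratio of Adrm1 to Uchl5 was 1.21 ± 0.0623 in untreated WT cells (mean ± SD of 3 libraries), 3.36 ± 0.0275 at 6 h and 3.82 ± 0.157 at 24 h. In Nrf1-KO cells it was 0.964 ± 0.0467, 1.18 ± 0.0784 and 2.06 ± 0.0427. Every treated library was above every DMSO library of its line, and the ratio in Nrf1-KO cells at 24 h lay below that of WT cells at 6 h. The receptor-to-scaffold ratio of Psmd4 to Psmd1 took another course. It was 0.876 ± 0.00905 in untreated WT cells, 0.756 ± 0.0198 at 6 h and 1.03 ± 0.0312 at 24 h, so that it dipped and then passed its starting value. In Nrf1-KO cells it was 0.918 ± 0.0551, 1.01 ± 0.0727 and 1.38 ± 0.0859, with the 6 h and DMSO libraries overlapping and the 24 h libraries above both.

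**Figure D3:**
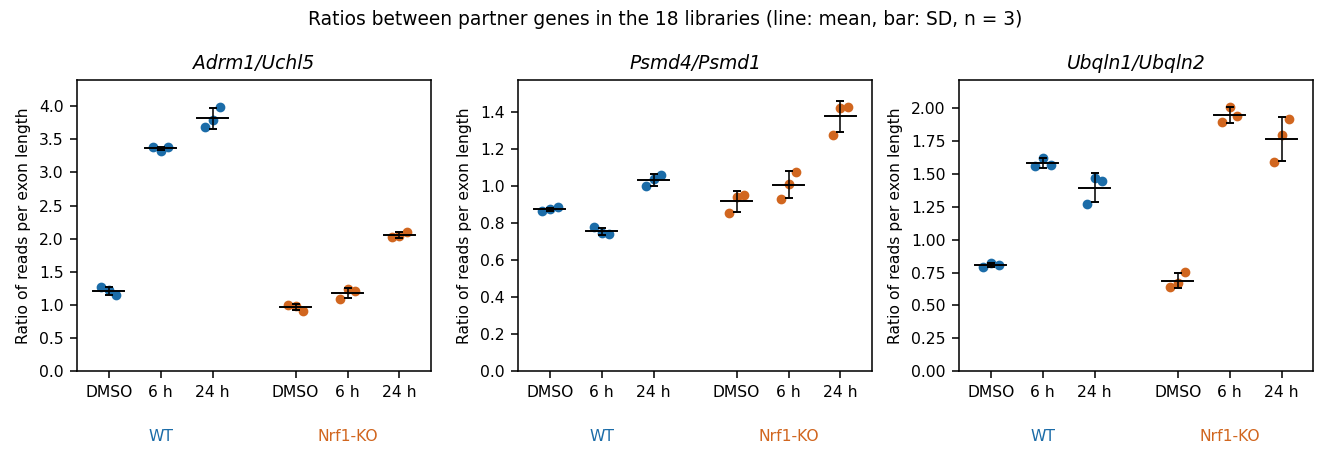
Ratio of reads per exon length between partner genes in each of the 18 libraries, for Adrm1 to Uchl5, Psmd4 to Psmd1 and Ubqln1 to Ubqln2 (linear axes from 0). Points are libraries, lines means and bars SD (n = 3). The first ratio rose with CFZ in both lines and most in WT, the others reached their highest values in Nrf1-KO cells.

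Rad23b (chr4:55350043-55392237, plus strand), a shuttle factor that also serves in DNA repair, was the most abundant shuttle factor in every group. Its WT values were 675, 711 and 685 CPM in DMSO, 1359, 1395 and 1361 CPM at 6 h and 1114, 1158 and 1133 CPM at 24 h. The Nrf1-KO values were 572, 554 and 583 CPM, 753, 766 and 761 CPM and 605, 625 and 612 CPM. It was highest at 6 h in both lines, and no groups of a line overlapped. Rad23b rose 1.99-fold by 6 h in WT cells (log2 0.99, SE 0.032, edgeR adjusted p = 8.8e-23) and was 1.64-fold above DMSO at 24 h (adjusted p = 1.3e-19). In Nrf1-KO cells the rise was 1.33-fold at 6 h (edgeR adjusted p = 6.6e-13). At 24 h it was 1.08-fold (log2 0.11, adjusted p = 0.0027), a value that turned to -0.075 (adjusted p = 0.031) under scaling by library size alone and fell short of the threshold without Nrf1-KO 24 h replicate 2 (log2 0.059, adjusted p = 0.14). The interaction was -0.58 at 6 h (95% interval -0.67 to -0.48) and -0.61 at 24 h (-0.70 to -0.52).

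Ubqln1 (chr13:58176156-58215653, minus strand), a ubiquilin that also chaperones membrane proteins, was the shuttle factor with the strongest response and kept most of it without Nrf1. WT libraries held 144, 147 and 149.6 CPM in DMSO, 395, 396 and 389.8 CPM at 6 h and 316, 331 and 328 CPM at 24 h. In Nrf1-KO libraries the values were 137, 130.5 and 131 CPM, 278, 281 and 276 CPM and 245, 248 and 240.0 CPM. Treated and DMSO libraries were far apart in both lines. The rise by 6 h was 2.68-fold in WT (log2 1.42, SE 0.032, edgeR adjusted p = 7e-27) and 2.10-fold in Nrf1-KO cells (adjusted p = 4.2e-23), the largest of the 9 in Nrf1-KO cells at that time. By 24 h it was 2.21-fold and 1.84-fold (edgeR adjusted p = 7.6e-25 and 8.6e-22). The interaction of -0.35 at 6 h (95% interval -0.45 to -0.26) and -0.26 at 24 h (-0.36 to -0.17) was called at both times but was smaller than that of Psmd1, Psmd2, Psmd4, Adrm1, Rad23b and Ubqln2, with intervals that did not overlap theirs. From 6 h to 24 h Ubqln1 fell by 0.28 on the log2 scale in WT and by 0.19 in Nrf1-KO cells (SE 0.031 and 0.032).

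Ubqln2 (chrX:153498227-153501570, plus strand), an X-linked ubiquilin whose human counterpart is mutated in a form of amyotrophic lateral sclerosis, moved in opposite directions in the lines. Its WT values were 138, 136 and 141 CPM in DMSO, 193, 185 and 189 CPM at 6 h and 189, 171 and 172 CPM at 24 h. The Nrf1-KO libraries gave 162, 147 and 131 CPM, 111, 106 and 108 CPM and 117, 105 and 95.2 CPM. Treated libraries were above DMSO in WT cells and below DMSO in Nrf1-KO cells without overlap, although the lines overlapped in DMSO. In WT cells Ubqln2 rose 1.37-fold by 6 h (log2 0.45, SE 0.056, edgeR adjusted p = 2.2e-08) and 1.28-fold by 24 h (adjusted p = 1.2e-06). In Nrf1-KO cells it fell by 0.43 (SE 0.060, edgeR adjusted p = 2.1e-07) and by 0.47 (adjusted p = 9.5e-09) on the log2 scale. The interaction was -0.88 at 6 h (95% interval -1.05 to -0.71) and -0.82 at 24 h (-0.99 to -0.65), the most negative of the shuttle factors. In DMSO the difference between the lines was 0.078 (95% interval -0.036 to 0.19, edgeR adjusted p = 0.25), and without Nrf1-KO DMSO replicate 3 it was 0.16 (adjusted p = 0.016).

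Ubqln4 (chr3:88553758-88569725, plus strand), a ubiquilin known to bind mislocalised proteins, showed no call against DMSO in WT cells. WT libraries held 66.4, 73.0 and 70.5 CPM in DMSO, 65.0, 63.4 and 68.8 CPM at 6 h and 75.02, 73.5 and 72.4 CPM at 24 h. Nrf1-KO libraries held 65.5, 69.8 and 64.0 CPM, 71.2, 69.0 and 66.2 CPM and 86.9, 85.3 and 80.0 CPM. Only the 24 h libraries of the Nrf1-KO line stood clear of their DMSO libraries. The log2 difference in WT cells was -0.089 at 6 h (95% interval -0.18 to 0.0069, edgeR adjusted p = 0.09) and 0.074 at 24 h (-0.020 to 0.17, adjusted p = 0.14). At 6 h it passed the threshold as a fall under upper-quartile scaling, library size alone and no expression filter, and without WT DMSO replicate 1 (log2 -0.12, adjusted p = 0.036). At 24 h it was 0.11 (adjusted p = 0.050) without WT DMSO replicate 2. In Nrf1-KO cells the difference was 0.060 at 6 h (edgeR adjusted p = 0.27), and Ubqln4 rose 1.27-fold by 24 h (log2 0.34, SE 0.044, adjusted p = 2e-08). The interaction was 0.15 at 6 h (95% interval 0.012 to 0.29, edgeR adjusted p = 0.079) and 0.27 at 24 h (SE 0.064, adjusted p = 0.00054), the opposite sign to the other shuttle factors. Without Nrf1-KO DMSO replicate 2 the 6 h interaction was 0.18 (edgeR adjusted p = 0.036), and under upper-quartile scaling it was also 0.18 (adjusted p = 0.027).

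These differences changed the make-up of the shuttle factor pool, taken as the reads per exon length of the 4 genes together. Rad23b held 56.8% ± 0.666 of it in untreated WT cells (mean ± SD of 3 libraries) and 59.7% ± 0.519 and 57.8% ± 0.709 at 6 h and 24 h. In Nrf1-KO cells its share was 52.5% ± 1.92, 54.2% ± 0.432 and 49.9% ± 1.27. The share of Ubqln1 went from 15.7% ± 0.241 to 22.3% ± 0.127 and 21.5% ± 0.409 in WT cells and from 15.9% ± 0.0537 to 25.8% ± 0.126 and 25.9% ± 0.222 in Nrf1-KO cells. Ubqln1 started from overlapping shares in the lines, and its share under CFZ was higher in every Nrf1-KO library than in any WT library. Ubqln2 went from 19.5% ± 0.584 to 14.1% ± 0.350 and 15.5% ± 0.980 in WT cells and from 23.2% ± 1.91 to 13.3% ± 0.335 and 14.7% ± 1.29 in Nrf1-KO cells. The share of Ubqln4 was 7.95% ± 0.229, 3.95% ± 0.189 and 5.18% ± 0.108 in WT cells and 8.46% ± 0.474, 6.78% ± 0.236 and 9.45% ± 0.210 in Nrf1-KO cells. The order of Ubqln1 and Ubqln2 switched with CFZ in both lines, from a ratio of 0.805 ± 0.0151 to 1.58 ± 0.0359 at 6 h and 1.39 ± 0.110 at 24 h in WT cells, and from 0.689 ± 0.0585 to 1.95 ± 0.0579 and 1.76 ± 0.165 in Nrf1-KO cells.

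**Figure D4:**
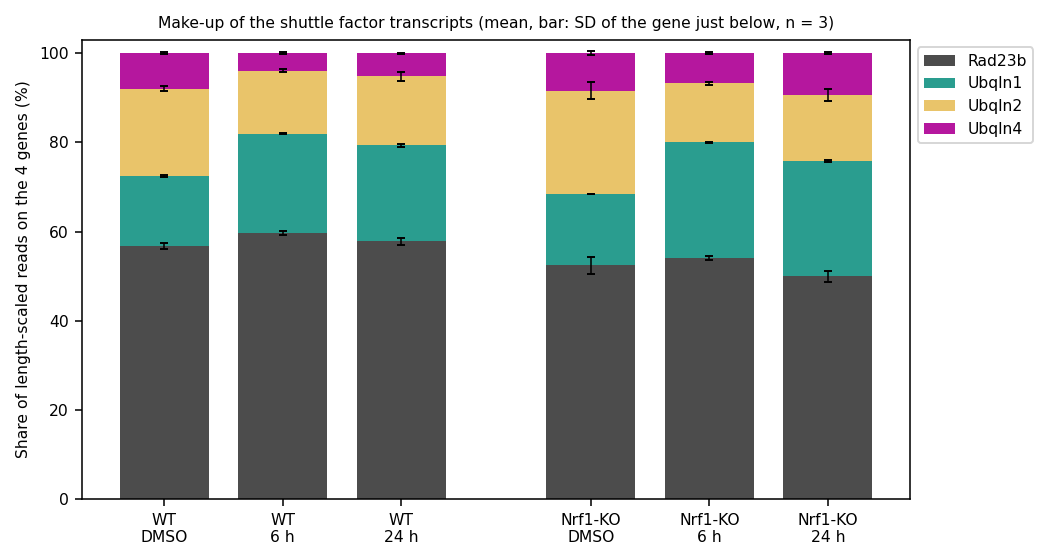
Share of each shuttle factor in the reads per exon length of Rad23b, Ubqln1, Ubqln2 and Ubqln4 together (percent, axis from 0) in the 6 groups. Stacked bars are the group means, and each error bar is the SD (n = 3) of the gene just below it. Rad23b made up 49.9% to 59.7% on average in each group, and Ubqln1 overtook Ubqln2 under CFZ in both lines.

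For the receptor and the shuttle that carry most reads in their class, Psmd4 and Rad23b, the ratio of levels rose under CFZ. In WT cells it rose by 6 h and further by 24 h, and in Nrf1-KO cells only by 24 h. In WT cells Psmd4 and Rad23b were at 41.9 and 120.4 CPM per kb in DMSO and 112 and 239 at 6 h. The difference between the levels was thus wider at 6 h, although the ratio had risen. The ratio of Psmd4 to Rad23b per exon length was 0.348 ± 0.00898 in untreated WT cells, 0.468 ± 0.0140 at 6 h and 0.813 ± 0.0177 at 24 h. In Nrf1-KO cells it was 0.343 ± 0.0114, 0.329 ± 0.0159 and 0.628 ± 0.0415. The lines overlapped in DMSO, and in Nrf1-KO cells the 6 h libraries overlapped those in DMSO.

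Between 6 h and 24 h, 3 of the 9 genes rose, 3 fell and 3 were not called in WT cells, where 36.9% of all genes rose and 35.4% fell. Psmd2 (0.35), Psmd4 (0.53) and Ubqln4 (0.16) rose, and Rad23b (-0.27), Ubqln1 (-0.28) and Uchl5 (-0.13) fell, all as log2 differences. The call of Ubqln4 was lost without WT 6 h replicate 1 (0.11) or replicate 2 (0.099), and that of Uchl5 without WT 24 h replicate 3 (-0.094). Uchl5 also lost its call under DESeq2 (-0.12, DESeq2 adjusted p = 0.081) and library size alone (-0.10, edgeR adjusted p = 0.067). Ubqln2 (-0.10, edgeR adjusted p = 0.12) was called as a fall without WT 6 h replicate 2 (-0.15) or WT 24 h replicate 1 (-0.14). The same call came under upper-quartile scaling (edgeR adjusted p = 0.042), without the expression filter (0.0041) and with only the groups compared (0.0034). Psmd1 (0.072, edgeR adjusted p = 0.051) was at the edge of the threshold and passed it under 5 of the alternatives. With the replicate number as a block its adjusted p was 0.038. In Nrf1-KO cells 5 rose, 3 fell and Ubqln2 was not called, where 38.7% of all genes rose and 38.3% fell. Psmd1 (0.17), Psmd2 (0.42), Psmd4 (0.63), Adrm1 (0.55) and Ubqln4 (0.28) rose, and Rad23b (-0.31), Uchl5 (-0.26) and Ubqln1 (-0.19) fell. In both lines, then, Psmd2, Psmd4 and Ubqln4 gained and Rad23b, Ubqln1 and Uchl5 lost level after 6 h. The WT calls of Ubqln4 and Uchl5 did not hold under every alternative.

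Read the other way, as Nrf1-KO against WT under one treatment, the untreated lines differed least. In DMSO 5 of the 9 were lower in Nrf1-KO cells, Psmd2 was higher and 3 were not called, where 25.7% of all genes were higher and 29.1% lower. The log2 differences of those 5 ran from -0.40 (Adrm1) to -0.15 (Ubqln1), with Psmd1, Psmd4 and Rad23b between. At 6 h of CFZ 7 of the 9 were lower in Nrf1-KO cells and Uchl5 and Ubqln4 were not called. Of all genes, 30.5% were higher and 30.8% lower there. Ubqln4 was called as higher under upper-quartile scaling (0.12, edgeR adjusted p = 0.035) and library size alone (0.14, adjusted p = 0.02). Psmd1 (-1.78), Adrm1 (-1.57), Psmd4 (-1.37) and Psmd2 (-1.03) differed by at least 2-fold, and Rad23b (-0.85), Ubqln2 (-0.80) and Ubqln1 (-0.50) by less. At 24 h 8 were lower and Ubqln4 was higher (0.19, SE 0.045), where 35.6% of all genes were higher and 36.4% lower. Psmd1 (-1.67), Psmd4 (-1.26) and Adrm1 (-1.08) were the 3 still at least 2-fold lower. The medians at 6 h and 24 h were -1.37 and -1.08 for the scaffolds, receptors and Uchl5, -0.65 and -0.58 for the shuttle factors, and 0.0036 and -0.0031 for all genes.

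The rest of the 19S particle gives a measure for the members. All 6 ATPases of the base (Psmc1 to Psmc6), which unfold substrates, rose in WT cells at both times, with medians of 1.45 and 1.49, from Psmc1 (1.13) to Psmc4 (1.67) at 6 h. Their interaction was negative and called for 6 of 6 at both times, with medians of -1.14 and -1.15. Psmd1, Psmd2 and Psmd4 lay within that range at 6 h, Adrm1 (1.71) just above it and Uchl5 (0.24) below it. Of the 9 lid genes 8 rose and Sem1, a small lid subunit also found in other complexes, fell in WT cells at both times (-0.11 and -0.18, edgeR adjusted p = 0.039 and 0.0015). The lid's largest rise was Psmd11 (1.81) at 6 h and Psmd11 (1.88) at 24 h. Its interaction was negative and called for 8 of 9 genes at 6 h and 9 of 9 at 24 h, with medians of -1.08 and -0.90 and the most negative values in Psmd3 (-1.68) and Psmd12 (-1.50). Beside these counts, 35.6% of all genes tested rose and 36.2% fell in WT cells at 6 h, and 43.2% and 40.5% at 24 h. A called negative interaction was found for 18.4% of all genes at 6 h and 30% at 24 h.

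Other genes that carry or process ubiquitin near the proteasome were less alike. Of 23 listed, 19 were tested. In WT cells 14 rose and 5 were not called at 6 h, and 15 rose and 4 fell at 24 h, with medians of 0.91 and 1.07. Of all genes tested, 35.6% rose and 36.2% fell at 6 h, and 43.2% rose and 40.5% fell at 24 h. The largest rise at both times was that of Zfand2a, a zinc finger protein that binds the proteasome under arsenite (3.20 at 6 h, 3.399 at 24 h), and it was also the largest in Nrf1-KO cells (2.04 and 3.80). The interaction was negative and called for 13, positive and called for 2 and not called for 4 at 6 h, and 12, 4 and 3 at 24 h. Of all genes tested, 18.4% were called negative and 19.8% positive at 6 h, and 30% and 29.7% at 24 h. Usp14, the deubiquitinase that binds Psmd2's product, had the most negative interaction at 24 h (-1.33, SE 0.051, edgeR adjusted p = 5.7e-20), against -0.13 for Uchl5, the other deubiquitinase of the base. Part of Usp14 (26.0% of its exon length) overlaps a gene on the other strand, and whether reads were counted by strand is not given, so its values are uncertain.

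**Figure D5:**
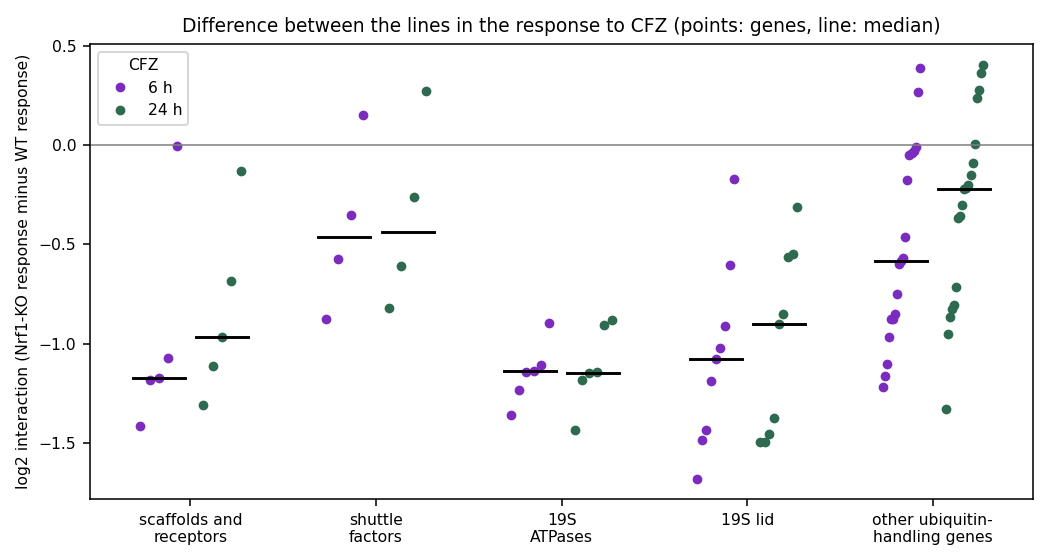
Interaction of genotype and CFZ (log2 response of Nrf1-KO minus WT cells) at 6 h and 24 h for each tested gene of the scaffolds with receptors and Uchl5, the shuttle factors, the 19S ATPases, the 19S lid and the associated genes. Points are genes and bars list medians. The ATPases lie between -1.44 and -0.88 at both times, and the other lists spread more widely. The shuttle factors run from -0.88 to 0.27 and the scaffolds with receptors and Uchl5 from -1.41 to -0.0051. The lid runs from -1.68 to -0.17 and the associated genes from -1.33 to 0.40.

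The genes whose level over the 18 libraries was most like that of each member were ranked by Pearson's r of log2 CPM among the 10251 tested genes whose mean count reached 50. The points share 6 treatments, so r describes the pattern and carries no p. Psmd1 was most like Fam219a (r = 0.997) and the ATPase gene Psmc5 (0.996), and 8 of its 20 nearest genes were proteasome subunits by symbol. Adrm1 was nearest to Nploc4 (0.995), a cofactor of the segregase Vcp, and to the lid deubiquitinase Psmd14 (0.993), with 3 subunits among its nearest 20. Of the nearest 20, 2 were subunits for Rad23b, 1 for Psmd4 and 0 for each of Psmd2, Uchl5, Ubqln1, Ubqln2 and Ubqln4. The members themselves were left out of the ranking, and Psme genes were not counted as subunits. A count of 0 therefore does not mean a pattern unlike the proteasome. Psmd2 had r = 0.979 with Psmd4, 0.958 with Adrm1 and 0.947 with Psmd1, but 0.450 with Uchl5. The share of subunits among all ranked genes was not computed, so the counts have no background. Psmd2 was nearest to Calr3 and Ptprn (0.994 and 0.992) and Psmd4 to Armcx5 and Zranb2 (0.994 and 0.993). Rad23b was nearest to Ccdc47 and Txnl1 (0.996 and 0.993), and Txnl1 is itself a proteasome-bound thioredoxin. Ubqln1 was nearest to A630007B06Rik and Napb (0.992 and 0.988). The weakest likenesses were those of Ubqln2, with Atf6b and Tor1aip1 (0.953 and 0.952), Ubqln4, with Anks1 and Ccnj (0.954 and 0.934), and Uchl5, with Gorab and Mrps2 (0.934 and 0.926).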

How the data were processed

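RNA of 18 cultures was measured by stranded mRNA sequencing. The authors ran RNA Express (STAR and DESeq2, versions not given) and deposited raw read counts per gene symbol without normalization. The genome build, annotation and use of strand in counting are not given in the sources used here. The sample labels gave each library's group and replicate number, and columns were matched by name.

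The counts were filtered (minimum count 10, minimum total 15), scaled by TMM and compared with edgeR 4.0.16 in R 4.3.3 (glmQLFit, glmQLFTest) in 1 model of 6 groups, with 11 contrasts. A standard error is the size of a log2 fold change divided by the square root of F. Biological variation between replicates was low (common coefficient 3.13%), which lets small differences reach the threshold of 0.05. Replicate pairs differed by more than sampling noise (chi-square per degree of freedom 1.44 to 8.47). Exon lengths and positions came from GENCODE M21 and promoter windows from RefSeq, both on GRCm38, matched by symbol.

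Alternatives were upper-quartile scaling, scaling by library size, DESeq2 1.42.0, a fit without the expression filter, a filter at a mean count of 10, a fit of only the groups compared, a replicate block, and leaving out single libraries. Genes named are the 9 members, Nfe2l1, some of the cell type markers and the list genes with the largest or smallest change in a comparison. For each member the 2 most similar genes outside the 9 are also named. One gene that this rule takes is not reported here. The members and lists were chosen with earlier results of these data known, and the ratios between members after values were seen. No p-value adjusted over a list alone and no test over the members is given for that reason.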

Additional observations from a re-analysis of the deposited data

Results flagged for a closer look

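By the interaction term of the edgeR model, the genotypes differed in their answer to CFZ for 7 of the 9 genes at 6 h and 8 of the 9 at 24 h. At 6 h the log2 interaction was -1.41 for Psmd1, -1.18 for Psmd2, -1.07 for Psmd4, -1.17 for Adrm1, -0.58 for Rad23b, -0.35 for Ubqln1 and -0.88 for Ubqln2. At 24 h it was -1.31 for Psmd1, -1.11 for Psmd2, -0.97 for Psmd4, -0.68 for Adrm1, -0.61 for Rad23b, -0.26 for Ubqln1, -0.82 for Ubqln2 and 0.27 for Ubqln4. Of all genes tested, 18.4% had a called negative and 19.8% a called positive interaction at 6 h, and 30% and 29.7% at 24 h. Under all the alternatives run, these 15 values of the 9 genes kept their sign and their side of the threshold. The lines also differed for the targeted gene Nfe2l1 (0.70 at 6 h and -0.15 at 24 h), the lid genes Psmd3 (-1.68 at 6 h) and Psmd12 (-1.50 at 24 h) and the deubiquitinase gene Usp14 (-1.33 at 24 h).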

How the results depend on the processing

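Of 99 values for single genes of the 9, 80 kept their direction and their side of the threshold under every alternative and 19 did not (6 each of Uchl5 and Ubqln4, 3 of Ubqln2, and 1 each of Psmd1, Psmd2, Adrm1 and Rad23b). The number of the 9 called stayed within 1.5 times in every comparison. Upper-quartile scaling and library size alone moved the median of all genes by -0.18 to 0.067 on the log2 scale. Under upper-quartile scaling the medians of the scaffolds with receptors and of the shuttle factors became 1.31 and 0.61 at 6 h and 1.57 and 0.40 at 24 h in WT, and 0.17 and 0.16 and 0.29 and 0.12 in Nrf1-KO cells. Under library size alone they became 1.29 and 0.59, 1.599 and 0.43, 0.13 and 0.13 and 0.22 and 0.043 in the same order, 0.35 and -0.18 for 24 h against 6 h in Nrf1-KO cells, -1.30 and -0.58 for Nrf1-KO against WT at 6 h and -1.04 and -0.51 for the interaction at 24 h. Without the expression filter the shuttle median in WT at 24 h was 0.48. With single libraries left out the shuttle median of Nrf1-KO against WT at 24 h ran from -0.60 to -0.52.

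Signs changed in these cases. Under upper-quartile scaling these were Uchl5 (-0.024) and Ubqln4 (-0.064) in WT at 24 h, Ubqln4 at 6 h (-0.014) and Rad23b at 24 h (-0.0017) in Nrf1-KO cells, and the Uchl5 interaction at 6 h (0.030). Under library size alone they were Ubqln4 in WT at 24 h (-0.032), Ubqln4 at 6 h (-0.053), Rad23b (-0.075) and Nfe2l1 (-0.00092) at 24 h in Nrf1-KO cells, Uchl5 between the lines at 6 h (0.011) and its 6 h interaction (0.014). With single libraries left out, Uchl5 in Nrf1-KO cells at 24 h ran from -0.054 to 0.0000029, Ubqln2 from 6 h to 24 h in Nrf1-KO cells from -0.13 to 0.016 and the Uchl5 interaction at 6 h from -0.054 to 0.023. The causes were not tested.

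The share of called genes that rose went from 49.6% to 37.9% (upper-quartile) and 35.4% (library size) in WT at 6 h. Under library size alone it went from 49.7% to 36.4% in Nrf1-KO cells at 6 h and from 52.0% to 41.6% at 24 h. Between the lines it went, also under library size alone, from 46.9% to 57.7% in DMSO and from 49.8% to 60.8% at 6 h. Of the called interactions, 51.8% were positive at 6 h, 60.3% under upper-quartile scaling and 56.5% under library size alone. At 24 h these shares were 49.8%, 53.1% and 40.0%. The replicate numbers did not pair the samples (r of same-numbered deviations -0.060 to 0.14 over 45 pairs, 4 of them over 0.1), and the replicate block changed 1 call, that of Psmd1 from 6 h to 24 h in WT cells (0.072, adjusted p = 0.038).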
